A study of Mus musculus with 12 samples.

Results

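The 10 genes described here are the marker genes of T cells and of regulatory T cells in whole lungs of bleomycin-injured mice. They were taken by symbol: Cd3e, Cd3d and Cd3g of the T cell receptor complex, the coreceptors Cd4, Cd8a and Cd8b1, the regulatory and costimulatory genes Foxp3, Ctla4 and Icos, and the interleukin 7 receptor gene Il7r. The gene tables held 55491 entries, of which 17909 were tested, and the 10 genes were all among those.

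Each T cell carries a receptor whose signal is passed on by the CD3 chains, and CD4 or CD8 sets whether the cell reads antigen on class II or class I molecules. Regulatory T cells, mostly CD4+ cells that depend on the transcription factor FOXP3, hold back other T cells, in part through the inhibitory receptor CTLA-4. In the lung, T cells gather around airways and vessels and persist as resident memory cells after injury.

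RNA came from wild-type C57BL/6J male mice aged 10 weeks, all given bleomycin, a cytotoxic drug used to model lung fibrosis, as an oropharyngeal dose of 0.0125 U for each mouse. The first group had then received nanoparticles (NP) of poly(lactide-co-glycolide) coated with poly(ethylene-alt-maleic anhydride), injected behind the eye at 2 mg per dose in PBS on days 14 to 18, and its lungs were taken at day 21. The vehicle group had received PBS alone and was taken at day 21, and the third group was taken at day 14, before either treatment. Each group held 4 mice and 4 libraries, no group lacked bleomycin, and the replicate numbers of different groups named different mice. Total expected counts ran from 24138582 to 28910459 in NP libraries, from 28001006 to 36208498 in vehicle libraries and from 25706260 to 42714693 in day 14 libraries. A count of 3, taken as the limit of detection for counting error alone, was 0.0702 to 0.124 CPM, the count scaled to library size.

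Several of the 10 genes lie side by side in the genome (GENCODE M21, GRCm38). Cd3g (chr9:44969572-44980431, minus strand) and Cd3d (chr9:44981786-44987339, plus strand) are divergent neighbours whose starts are 1355 bp apart. Cd3e (chr9:44998740-45009627, minus strand) follows 11400 bp beyond Cd3d. Cd8b1 (chr6:71322788-71337494, plus strand) and Cd8a (chr6:71373427-71379173, plus strand) are 35932 bp apart, and Cd4 (chr6:124864692-124888221, minus strand) is on the same chromosome. Ctla4 (chr1:60887000-60915832, plus strand) and Icos (chr1:60977927-61000320, plus strand) are separated by 62094 bp. Foxp3 (chrX:7573644-7595245, plus strand) and Il7r (chr15:9505788-9530176, minus strand) stand apart from the rest.

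RefSeq promoter windows, 250 bases before to 50 bases after the start on GRCm38.p6, were at hand for 7 of the 10 genes. Those of the 3 CD3 genes are shown because these neighbours varied together between lungs, and those of Foxp3 (the first of its 2 listed starts) and Il7r because these genes passed a test below. Capitals mark matches, on either strand, to 4 short letter patterns: AGGAAG (the ETS core), TGTGGT (the RUNX core), AGATAA (the GATA core) and CACCTG (an E protein box). A match on the other strand appears as the reverse complement, such as CTTCCT for the ETS core.
Cd3e promoter, chr9:45009562-45009861, minus strand: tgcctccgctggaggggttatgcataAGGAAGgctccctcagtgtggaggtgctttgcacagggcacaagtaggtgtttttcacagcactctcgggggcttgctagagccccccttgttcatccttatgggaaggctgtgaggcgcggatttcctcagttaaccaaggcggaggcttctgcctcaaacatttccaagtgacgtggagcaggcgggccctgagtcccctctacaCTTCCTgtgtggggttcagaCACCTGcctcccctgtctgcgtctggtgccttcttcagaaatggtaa
Cd3d promoter, chr9:44981536-44981835, plus strand: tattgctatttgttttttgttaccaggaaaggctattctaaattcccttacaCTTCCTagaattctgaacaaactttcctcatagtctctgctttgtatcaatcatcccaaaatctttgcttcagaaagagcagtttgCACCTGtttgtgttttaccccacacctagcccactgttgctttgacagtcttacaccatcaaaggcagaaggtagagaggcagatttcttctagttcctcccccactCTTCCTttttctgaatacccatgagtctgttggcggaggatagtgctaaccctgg
Cd3g promoter, chr9:44980382-44980681, minus strand: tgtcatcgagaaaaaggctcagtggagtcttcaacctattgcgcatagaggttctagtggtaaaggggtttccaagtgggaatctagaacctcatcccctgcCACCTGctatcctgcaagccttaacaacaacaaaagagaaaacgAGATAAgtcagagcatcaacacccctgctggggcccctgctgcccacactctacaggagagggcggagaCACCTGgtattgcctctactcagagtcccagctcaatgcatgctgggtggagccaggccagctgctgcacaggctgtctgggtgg
Foxp3 promoter, chrX:7579426-7579725, plus strand: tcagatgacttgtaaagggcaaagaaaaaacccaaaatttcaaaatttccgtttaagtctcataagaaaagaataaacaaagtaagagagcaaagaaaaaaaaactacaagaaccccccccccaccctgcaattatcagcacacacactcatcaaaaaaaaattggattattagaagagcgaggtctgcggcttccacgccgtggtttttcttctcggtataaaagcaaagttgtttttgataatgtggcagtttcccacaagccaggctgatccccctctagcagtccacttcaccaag
Il7r promoter, chr15:9529827-9530126, minus strand: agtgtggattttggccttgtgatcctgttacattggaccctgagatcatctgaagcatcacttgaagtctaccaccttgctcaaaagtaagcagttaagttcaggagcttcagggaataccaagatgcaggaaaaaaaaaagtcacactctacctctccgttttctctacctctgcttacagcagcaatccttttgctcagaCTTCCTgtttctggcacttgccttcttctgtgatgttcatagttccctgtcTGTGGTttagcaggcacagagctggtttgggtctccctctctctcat

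The E protein box was found in the windows of all 3 CD3 genes, once in Cd3e, once in Cd3d and 2 times in Cd3g. It was present in 20.2% of the 32851 promoter windows of the table. Cd3e and Cd3d each held 2 ETS cores, which 35.4% of all windows held at least once, and Cd3g held 1 GATA core, found in 11.2%. The Il7r window held 1 ETS core and 1 RUNX core, a RUNX core being present in 16.8% of windows. The Foxp3 window shown and the Cd8a window held none of the 4 patterns, while the window of the second listed Foxp3 start held 1 ETS core and 1 GATA core. The Ctla4 window held 1 ETS core and 1 E protein box. A match of letters is a description of the window and does not show a bound site.

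Levels of the 10 genes were middling to low among those tested. In TPM, which are scaled for transcript length and so can be set side by side between genes, Il7r averaged 14.1 ± 2.22 over the 12 libraries (SD) and Cd3g 12.7 ± 2.81. Cd3e averaged 5.74 ± 0.807 TPM, Cd3d 5.38 ± 1.74, Cd8b1 4.96 ± 1.42, Cd4 4.56 ± 0.771 and Cd8a 4.01 ± 1.01. The lowest 3 were Icos with 1.87 ± 0.358 TPM, Ctla4 with 1.46 ± 0.507 and Foxp3 with 1.24 ± 0.533. Neighbours in this order had overlapping values, except at 2 steps. Every library of Cd3g (at least 9.1 TPM) was above every library of Cd3e (at most 7.05 TPM), and every library of Cd8a (at least 2.89 TPM) above every library of Icos (at most 2.44 TPM). Il7r lay at the 52.7th percentile of tested genes and Foxp3 at the 15.6th.

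Across the 3 groups, CD3 genes and coreceptors showed no called change, Foxp3 was lower in NP lungs than at day 14, and Il7r was lower in vehicle lungs than at day 14. A gene is called here when its adjusted p, from the edgeR quasi-likelihood test with Benjamini-Hochberg adjustment over all 17909 genes, was under 0.05. In the comparison of NP with day 14 lungs, 1 of the 10 genes was called, lower, against 14.7% of all genes called in either direction and 8.56% lower. In that of vehicle with day 14 lungs, 1 of the 10 was called, lower, against 10.3% of all genes and 6.51% lower. Between NP and vehicle lungs at day 21, 0 of the 10 were called, and 0% of all genes. These shares are near those of all genes, so they say nothing particular about the 10 genes as a set. The median log2 fold change of the 10 genes was −0.11 for NP against day 14, −0.21 for vehicle against day 14 and 0.02 for NP against vehicle, beside medians over all genes of 0.01, 0.00 and 0.00. Both comparisons with day 14 share the same 4 day 14 libraries, so their values are given side by side and not as support for each other.

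**Figure D1:**
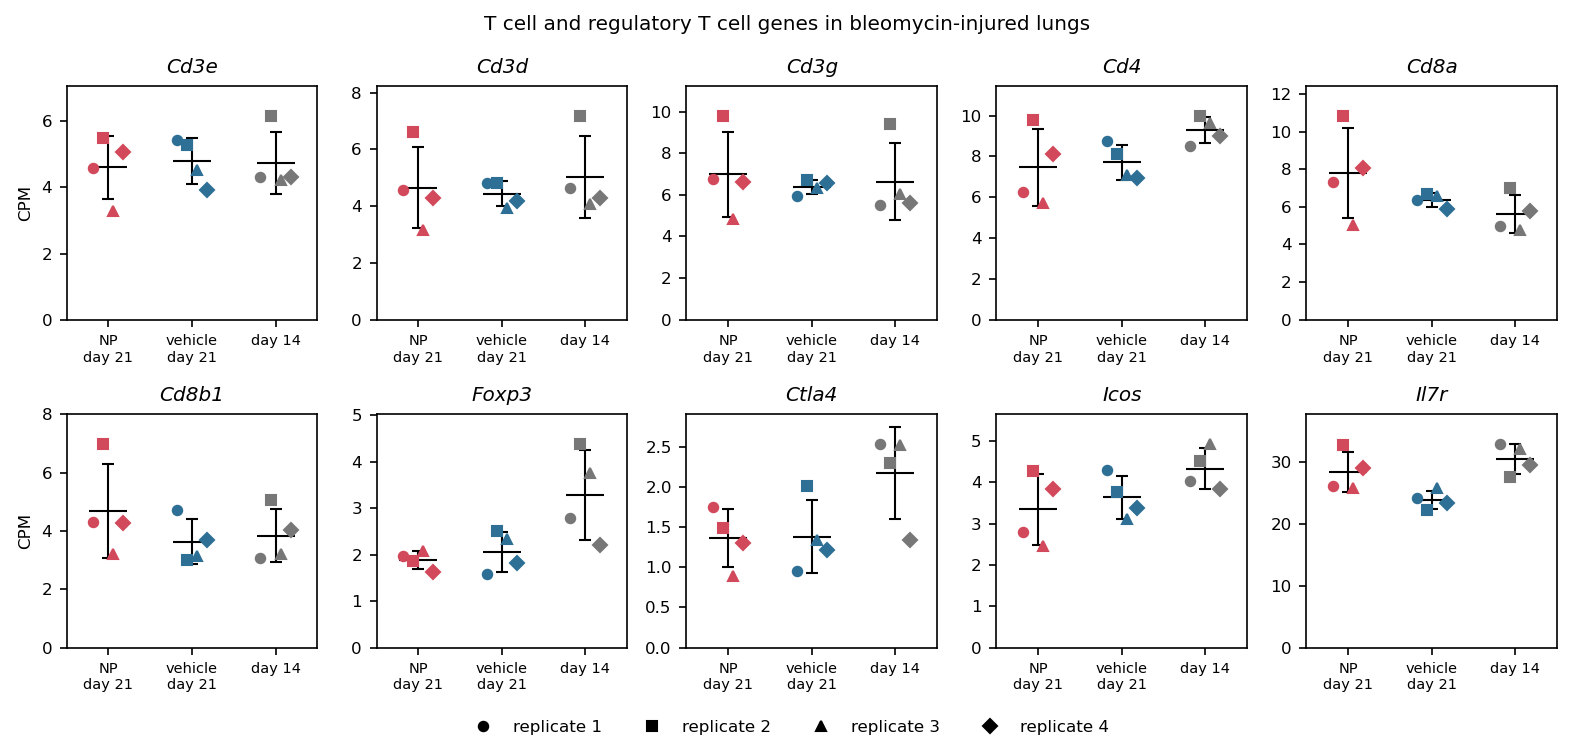
CPM of each of the 10 genes (vertical axes, from 0) in NP day 21, vehicle day 21 and day 14 lungs, with a symbol for each replicate and mean ± SD in black, n = 4 per group. The CD3 and coreceptor genes overlap between groups, and the Foxp3 values of NP lungs lie below all 4 day 14 values.

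The CD3 genes differed between groups by less than the spread between lungs. Cd3e, the epsilon chain needed for surface assembly of the receptor, had 4.58, 5.48, 3.28 and 5.07 CPM in NP lungs, 5.43, 5.27, 4.54 and 3.92 CPM in vehicle lungs and 4.31, 6.15, 4.21 and 4.31 CPM at day 14 (replicates 1 to 4 in each list here and below). The groups overlapped, and 1 day 14 library, replicate 2, stood above the others of its group. The log2 fold changes of Cd3e were −0.04 (SE 0.18, adjusted p = 0.902) for NP against day 14 and 0.02 (SE 0.17, adjusted p = 0.966) for vehicle against day 14. Bulk lung RNA cannot tell fewer T cells from less RNA per T cell, here or in any comparison below.

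Cd3d, the delta chain, had 4.58, 6.61, 3.16 and 4.28 CPM in NP lungs, 4.83, 4.82, 3.93 and 4.20 CPM in vehicle lungs and 4.65, 7.16, 4.06 and 4.27 CPM at day 14. Its NP and day 14 groups were each spread by a high replicate 2, and its vehicle group was narrow. Cd3g, the gamma chain, had 6.75, 9.76, 4.84 and 6.63 CPM in NP lungs, 5.96, 6.72, 6.32 and 6.57 CPM in vehicle lungs and 5.51, 9.39, 6.04 and 5.61 CPM at day 14. The groups of both genes overlapped. The log2 fold changes against day 14 were −0.11 (SE 0.21, adjusted p = 0.764) for Cd3d and 0.08 (SE 0.20, adjusted p = 0.827) for Cd3g in NP lungs, and −0.18 (SE 0.21, adjusted p = 0.626) and −0.05 (SE 0.20, adjusted p = 0.90) in vehicle lungs.

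Reads of the receptor loci themselves gave a like picture of overlapping groups. Summed over 53 entries of the beta locus, CPM on raw library totals were 13.7, 22.3, 11.3 and 15.7 in NP lungs, 16.6, 14.4, 13.3 and 10.4 in vehicle lungs and 10.3, 21.8, 11.9 and 13.5 at day 14. The high libraries were again NP replicate 2 and day 14 replicate 2. For the alpha locus, 192 entries that include its joining segments were summed. They gave 19.5 to 23.6 in NP lungs, 20.7 to 23.0 in vehicle lungs and 20.4 to 28.1 at day 14. These entries were picked by symbol, and the pattern used also fits Tradd, an adaptor gene outside this locus. Their sum is therefore not a measure of the alpha locus alone. Trac, its constant gene, averaged 5.41 ± 0.848 CPM in NP lungs, 5.38 ± 0.757 in vehicle lungs and 5.52 ± 1.41 at day 14, scaled as for the 10 genes. The gamma and delta loci were lower, at most 3.73 and 2.88 CPM in any library.

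The coreceptors did not move as one. Cd4, which marks helper and regulatory T cells and is also transcribed in some myeloid cells, had 6.23, 9.80, 5.70 and 8.12 CPM in NP lungs, 8.74, 8.11, 7.09 and 6.93 CPM in vehicle lungs and 8.53, 9.95, 9.65 and 9.02 CPM at day 14. The day 14 values were close to each other and the NP values were spread, with replicates 1 and 3 lowest and replicate 2 within the day 14 range. Its log2 fold change was −0.32 (SE 0.15, adjusted p = 0.167) for NP and −0.27 (SE 0.15, adjusted p = 0.260) for vehicle, each against day 14. Without NP replicate 2, the value for NP was −0.47 with adjusted p = 0.0435.

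Cd8a, the alpha chain of the coreceptor of cytotoxic T cells, which some dendritic cells also carry, had 7.30, 10.8, 5.04 and 8.08 CPM in NP lungs, 6.34, 6.66, 6.57 and 5.87 CPM in vehicle lungs and 4.96, 7.01, 4.77 and 5.79 CPM at day 14. NP replicates 1, 2 and 4 were above every day 14 library and replicate 3 was not. Its log2 fold change was 0.47 (SE 0.19, adjusted p = 0.106) for NP and 0.18 (SE 0.19, adjusted p = 0.574) for vehicle against day 14. Without NP replicate 3, the value for NP was 0.64 with adjusted p = 0.0144, so that 1 library decided whether Cd8a was called.

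Cd8b1, the beta chain found on conventional CD8+ T cells, had 4.30, 6.98, 3.20 and 4.28 CPM in NP lungs, 4.72, 3.01, 3.13 and 3.68 CPM in vehicle lungs and 3.09, 5.05, 3.20 and 4.02 CPM at day 14. The groups overlapped, with NP replicate 2 the highest library of all. Its fold change on the log2 scale was 0.29 (SE 0.23, adjusted p = 0.427) for NP and −0.08 (SE 0.23, adjusted p = 0.862) for vehicle against day 14.

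The balance of CD8 to CD4 transcripts was also read within each library. Cd8a TPM divided by Cd4 TPM was 0.940 to 1.28 in NP lungs (1.16 ± 0.156, SD, n = 4), 0.728 to 0.942 in vehicle lungs (0.853 ± 0.106) and 0.509 to 0.816 at day 14 (0.679 ± 0.128). All 4 NP ratios were above all 4 day 14 ratios, while NP replicate 3 was within the vehicle range. From counts the ratio was 0.884 to 1.17 in NP lungs, 0.726 to 0.926 in vehicle lungs and 0.494 to 0.705 at day 14, so that both day 21 groups were above the day 14 group. Cd8b1 TPM over Cd4 TPM was 1.21 to 1.68 in NP lungs, 0.832 to 1.08 in vehicle lungs and 0.688 to 1.17 at day 14. By counts this last ratio was 0.527 to 0.712 in NP lungs and 0.372 to 0.540 in vehicle lungs, which overlapped. These ratios were chosen after the genes' values were known and were not tested.

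**Figure D2:**
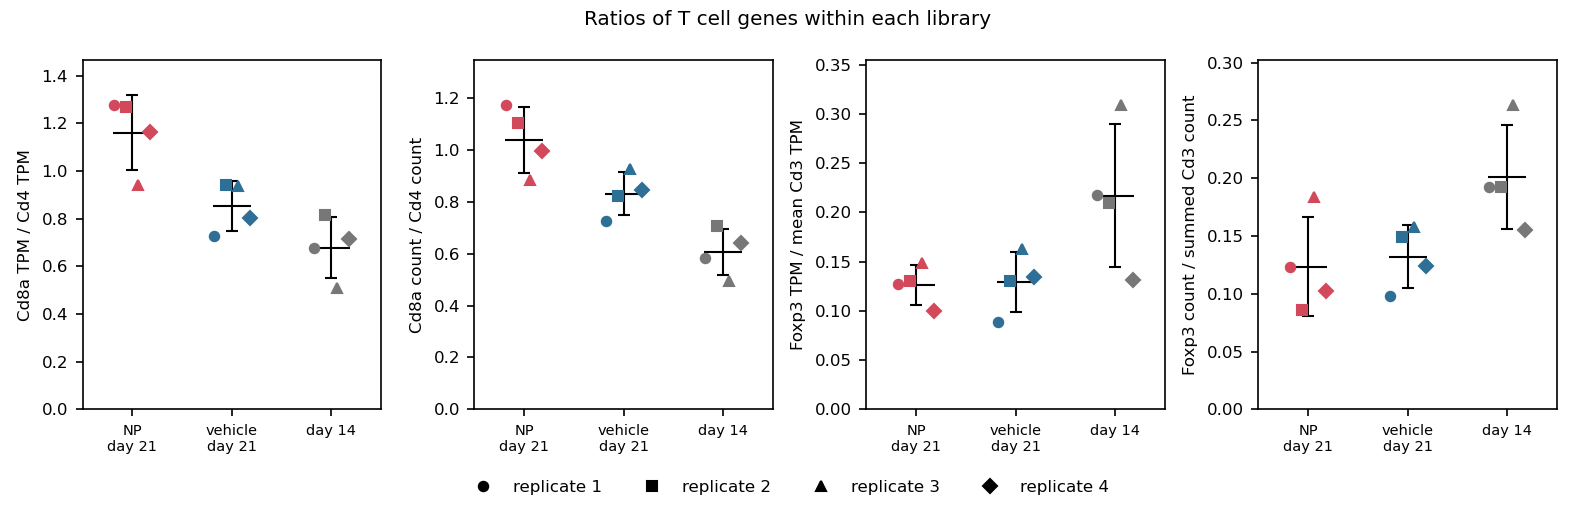
Ratios within each library: Cd8a to Cd4 from TPM and from counts, and Foxp3 to the CD3 genes from TPM (mean of Cd3e, Cd3d and Cd3g) and from counts (their sum), with mean ± SD in black, n = 4 per group. The Cd8a to Cd4 ratio lies at 0.940 to 1.28 in NP lungs and 0.509 to 0.816 in day 14 lungs by TPM.

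Foxp3, the transcription factor that defines regulatory T cells, fell in NP lungs relative to day 14. It had 1.96, 1.87, 2.07 and 1.63 CPM in NP lungs, 1.59, 2.5, 2.34 and 1.82 CPM in vehicle lungs and 2.78, 4.37, 3.76 and 2.21 CPM at day 14. The 4 NP libraries lay below all 4 day 14 libraries, as did those of 10.6% of all genes, and vehicle replicates 2 and 3 overlapped the lowest day 14 library. The log2 fold change for NP against day 14 was −0.79 (SE 0.22, adjusted p = 0.0262), a fold of 0.576 (95% interval 0.418 to 0.795), with means of 1.88 ± 0.187 CPM in NP lungs and 3.28 ± 0.971 CPM at day 14. For vehicle against day 14 it was −0.66 (SE 0.21) with adjusted p = 0.0613, and DESeq2 (adjusted p = 0.0333) and edgeR without day 14 replicate 4 (adjusted p = 0.0254) called that change. NP and vehicle lungs differed by −0.14 on the log2 scale (SE 0.22, adjusted p = 0.999), so the changes of NP and vehicle lungs since day 14 were not shown to differ.

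The Foxp3 call rested on few reads and on the count scale. The gene had 57, 45, 53 and 45 counts in NP libraries, 45, 83, 85 and 60 in vehicle libraries and 116, 116, 101 and 61 at day 14. Leaving out day 14 replicate 2 or 3, or NP replicate 1, 2 or 4, raised the adjusted p to between 0.054 and 0.0793 with the direction kept. In TPM the values were 1.03, 1.41, 0.89 and 0.76 in NP lungs, 0.71, 1.07, 1.16 and 0.96 in vehicle lungs and 1.44, 2.41, 2.14 and 0.95 at day 14. On this scale day 14 replicate 4 overlapped the NP libraries, and limma on log2(TPM + 0.1) gave −0.66 with adjusted p = 0.150. CPM per TPM differed 1.81-fold between libraries for Foxp3, the widest of the 10 genes, a quantity that moves with the transcript length assigned to the gene.

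Foxp3 overlaps 4 other annotated genes by their whole spans, and overlap of exons was not looked at. The strand setting of the counting was not given in the sources used here. Whether reads of the overlapping genes were kept apart from those of Foxp3 is therefore not known. Of these, Ccdc22, on the opposite strand, averaged 10.6 TPM and had a log2 fold change of −0.21 (SE 0.07, adjusted p = 0.0642) in NP lungs and −0.30 (SE 0.07, adjusted p = 0.0191) in vehicle lungs against day 14. Ppp1r3f, Gm36995 and Flicr averaged 2.87, 0.755 and 0.255 TPM. In that order their log2 fold changes against day 14 were −0.01, −0.11 and −0.02 in NP lungs. In vehicle lungs they were 0.08, 0.16 and −0.18, and every adjusted p of these genes in edgeR was at least 0.604. The part of the 4 overlapping genes in the Foxp3 values was not tested. Relative to the CD3 genes, Foxp3 TPM was 0.0999 to 0.149 in NP lungs, 0.0891 to 0.163 in vehicle lungs and 0.131 to 0.309 at day 14, with the lowest day 14 library inside both day 21 ranges.

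Ctla4, the inhibitory receptor that competes with CD28, had 1.76, 1.5, 0.899 and 1.3 CPM in NP lungs, 0.952, 2.02, 1.35 and 1.22 CPM in vehicle lungs and 2.54, 2.30, 2.53 and 1.34 CPM at day 14. Day 14 replicates 1, 2 and 3 were above every day 21 library, while day 14 replicate 4 was among them. Its log2 fold change was −0.68 (SE 0.27, adjusted p = 0.108) for NP and −0.65 (SE 0.27, adjusted p = 0.129) for vehicle against day 14. Without day 14 replicate 4 the value for NP was −0.84 with adjusted p = 0.0452. The counts behind these values were 23 to 51 in NP libraries, 27 to 67 in vehicle libraries and 37 to 106 at day 14.

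Icos, a costimulatory receptor of activated and regulatory T cells, had 2.79, 4.28, 2.46 and 3.84 CPM in NP lungs, 4.30, 3.77, 3.11 and 3.37 CPM in vehicle lungs and 4.02, 4.52, 4.92 and 3.84 CPM at day 14. The 3 groups overlapped, with NP replicates 1 and 3 the lowest libraries. Against day 14 its log2 fold change was −0.37 (SE 0.18, adjusted p = 0.167) for NP and −0.25 (SE 0.17, adjusted p = 0.369) for vehicle lungs.

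Il7r, the alpha chain through which interleukin 7 keeps naive and memory T cells alive and which innate lymphoid cells also carry, fell in vehicle lungs relative to day 14. It had 26.2, 32.9, 25.9 and 29.1 CPM in NP lungs, 24.2, 22.4, 25.8 and 23.4 CPM in vehicle lungs and 32.9, 27.6, 32.2 and 29.5 CPM at day 14. The 4 vehicle libraries lay below all 4 day 14 libraries, as did those of 10.7% of all genes. The log2 fold change for vehicle against day 14 was −0.35 (SE 0.08, adjusted p = 0.0192), a fold of 0.784 (95% interval 0.693 to 0.888), with means of 24 ± 1.47 CPM in vehicle lungs and 30.5 ± 2.47 CPM at day 14. Leaving out day 14 replicate 1 or 3, or vehicle replicate 1 or 2, raised the adjusted p to between 0.0552 and 0.0666. For NP against day 14 it was −0.10 (SE 0.08, adjusted p = 0.438). In CPM the NP libraries were all above the vehicle libraries, by a small margin at the nearest pair, as were those of 1.8% of all genes. In TPM the groups overlapped, at 12.71 to 17.58 in NP lungs and 10.52 to 14.1 in vehicle lungs. The difference of 0.25 on the log2 scale (SE 0.08) had an unadjusted p of 0.0102 and an adjusted p of 0.950 in edgeR.

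**Figure D3:**
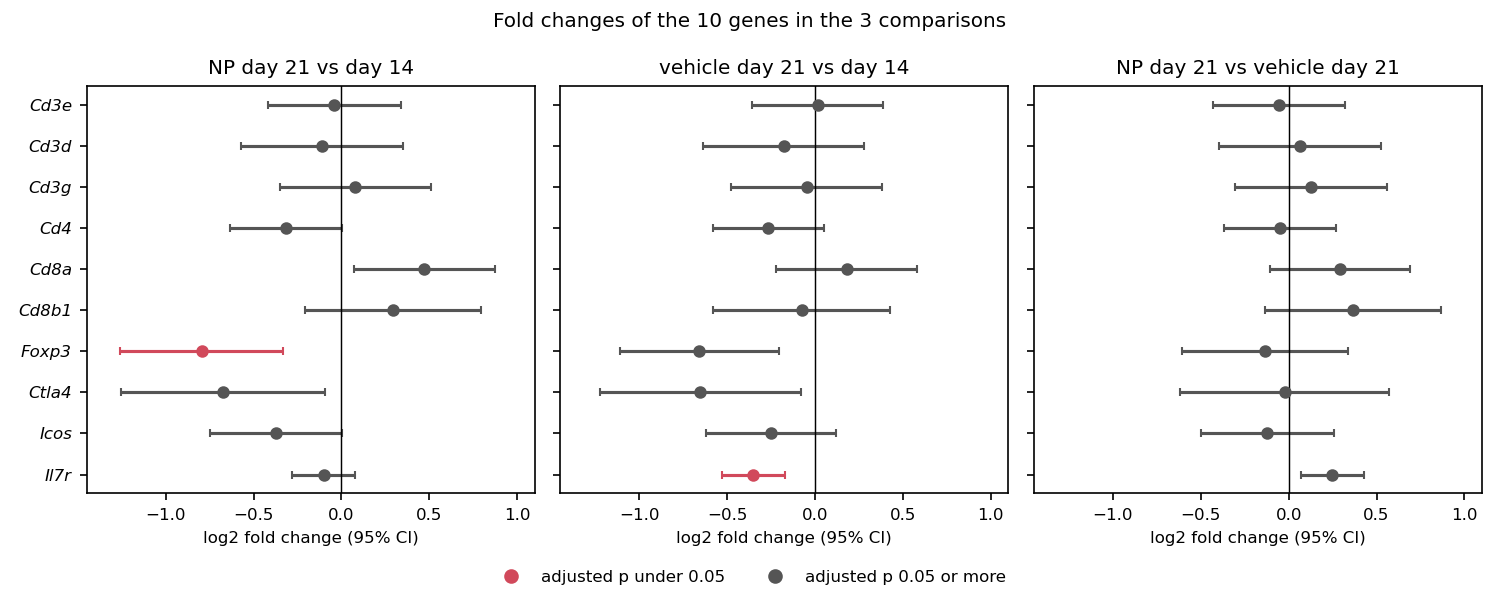
Log2 fold changes with 95% confidence intervals (horizontal axis) of the 10 genes (rows) for NP against day 14, vehicle against day 14 and NP against vehicle, from edgeR. Foxp3 in the first panel and Il7r in the second, in red, have adjusted p under 0.05, and no gene of the third panel does.

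NP and vehicle lungs at day 21 were not distinguished by any of the 10 genes. With edgeR, 0 of 17909 genes passed between these groups, 762 (4.25%) had an unadjusted p under 0.05, and DESeq2 called 19 genes, 17 higher and 2 lower in NP lungs and 0 of them among the 10. Il7r was the 1 gene of the 10 with an unadjusted p under 0.05. Cd8a differed by 0.29 (SE 0.19) and Cd8b1 by 0.37 (SE 0.23), both higher in NP lungs on average. The intervals remained wide: the fold of Cd8b1 was 1.29 with a 95% interval of 0.913 to 1.82, that of Cd8a 1.23 with 0.930 to 1.62, that of Ctla4 0.984 with 0.652 to 1.49 and that of Foxp3 0.910 with 0.657 to 1.26. Missing the threshold therefore does not show that the groups were alike.

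Other genes of these pathways were read from lists of the same kind. Of 26 genes of T cell receptor signalling and pan-T identity, 0 passed with edgeR in any of the 3 comparisons, the median log2 fold change being 0.14 for NP against day 14, −0.08 for vehicle against day 14 and 0.15 for NP against vehicle. At an unadjusted p under 0.05 there were 2, 0 and 2 such genes in that order, and DESeq2 called 0 in each. With NP replicate 1, 3 or 4 left out, 1 gene of this list passed for NP against day 14, a different gene each time.

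Of 21 genes associated with regulatory T cells, 19 were tested, and 5 fell in NP lungs and 3 in vehicle lungs relative to day 14, with 0 rising in either. Over all genes, 8.56% were called lower in NP lungs and 6.51% in vehicle lungs. The median log2 fold change was −0.34 for NP and −0.31 for vehicle, beside 0.01 and 0.00 over all genes. Il2ra, the interleukin 2 receptor alpha chain (CD25), averaged 2.84 ± 0.317 CPM in NP lungs and 4.27 ± 0.450 CPM at day 14, a log2 fold change of −0.59 (SE 0.12, adjusted p = 0.00742). For vehicle against day 14 it was −0.43 (SE 0.12, adjusted p = 0.0369), a call lost in 7 of 12 fits that left out 1 library (adjusted p up to 0.113) and with limma on log2(TPM + 0.1) (−0.35, adjusted p = 0.219). On that TPM scale the NP call of Il2ra was also lost (−0.45, adjusted p = 0.0987). Tnfrsf9, the costimulatory receptor 4-1BB, had −0.84 (SE 0.18, adjusted p = 0.00816) for NP and −0.76 (SE 0.18, adjusted p = 0.0167) for vehicle against day 14.

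Ccr8, a chemokine receptor of tissue regulatory T cells, averaged 0.214 ± 0.120 CPM in NP lungs, 0.479 ± 0.0473 CPM in vehicle lungs and 0.632 ± 0.185 CPM at day 14, on 3 to 36 counts per library. The log2 fold change of Ccr8 was −1.60 (SE 0.36, adjusted p = 0.0101) for NP and −0.42 (SE 0.30, adjusted p = 0.397) for vehicle against day 14. Nt5e (CD73, an ecto-enzyme that makes adenosine) fell in both day 21 groups, with means of 160 CPM in NP lungs, 154 CPM in vehicle lungs and 191 CPM at day 14. Its log2 fold change was −0.25 (SE 0.07, adjusted p = 0.0240) for NP and −0.31 (SE 0.07, adjusted p = 0.0123) for vehicle. The NP call of Nt5e was lost in 4 of 12 fits that left out 1 library (adjusted p up to 0.0808), and the vehicle call held in each. Activated T cells of other kinds and non-lymphoid cells also transcribe several genes of this list. For NP against day 14, 3 to 6 genes of it were called when single libraries were left out, Il2ra, Tnfrsf9 and Ccr8 each time. For vehicle against day 14 the count was 1 to 3, with Nt5e alone left without day 14 replicate 3 or vehicle replicate 1 or 3. Between NP and vehicle lungs, 0 of the 19 passed in edgeR, 3 had an unadjusted p under 0.05, and DESeq2 called 1, Il1rl1. Il1rl1, the interleukin 33 receptor ST2 of tissue regulatory T cells and innate lymphoid cells, averaged 8.17 ± 0.571 CPM in NP lungs and 10.9 ± 0.650 CPM in vehicle lungs, a log2 fold change of −0.42 (SE 0.09, edgeR adjusted p = 0.476).

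Among 11 costimulatory and checkpoint genes, 2 fell and 1 rose in NP lungs and 3 fell and 1 rose in vehicle lungs against day 14, and DESeq2 called 5 and 3 of them in that order. Over all genes, 8.56% were called lower and 6.16% higher in NP lungs, and 6.51% lower and 3.79% higher in vehicle lungs. Pdcd1, the checkpoint receptor PD-1, averaged 1.02 ± 0.112 CPM in NP lungs, 1.32 ± 0.255 CPM in vehicle lungs and 2.26 ± 0.685 CPM at day 14. Its log2 fold change was −1.14 (SE 0.24, adjusted p = 0.00717) for NP and −0.78 (SE 0.23, adjusted p = 0.0444) for vehicle. The NP call of Pdcd1 held with each library left out, and the vehicle call was lost in 9 of 12 such fits, with adjusted p up to 0.142. The other calls also depended on single libraries. For NP, that of Btla, an inhibitory receptor (0.51 on the log2 scale, adjusted p = 0.0431), was lost in 8 of 12 such fits and that of Havcr2, the checkpoint receptor TIM-3 (−0.31, adjusted p = 0.0165), in 3. For vehicle, that of Pdcd1lg2, the PD-1 ligand PD-L2 (−0.71, adjusted p = 0.0408), was lost in 9 fits, that of Havcr2 (−0.28, adjusted p = 0.0307) in 6 and that of Tnfrsf14, the receptor that binds BTLA (0.45, adjusted p = 0.0277), in 3.

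Of 11 cytotoxic effector genes tested, 3 rose and 0 fell in NP lungs against day 14 with edgeR, beside 6.16% of all genes called higher, and DESeq2 called 4. In edgeR 0 passed in vehicle lungs against day 14 (0 at an unadjusted p under 0.05) or between NP and vehicle lungs (1 at an unadjusted p under 0.05), and DESeq2 called 0 in both. Gzmb (granzyme B) averaged 5.40 ± 1.13 CPM in NP lungs and 2.85 ± 1.24 CPM at day 14, a log2 fold change of 0.94 (SE 0.24, adjusted p = 0.0188). Prf1 (perforin) had 0.85 (SE 0.26, adjusted p = 0.0449) and Eomes, a transcription factor of cytotoxic and natural killer cells, 0.89 (SE 0.26, adjusted p = 0.0362). When single libraries were left out, 0 to 4 genes of the list were called, and the call of Prf1 was lost in 9 of 12 such fits (adjusted p up to 0.125), that of Eomes in 6 and that of Gzmb in 3. The count was 0 without day 14 replicate 1, without day 14 replicate 3 or without NP replicate 2, and 1, Gzmb, without day 14 replicate 4 or NP replicate 4. With only these groups in the fit it was also 0. Natural killer cells transcribe these genes too: 2 of 9 natural killer markers, Prf1 and Eomes, which are on both lists, rose in NP lungs with edgeR, 7 of 9 had an unadjusted p under 0.05 and DESeq2 called 5. The median log2 fold change of the 9 was 0.79, beside 0.57 for the cytotoxic list, with 0 of 9 below 0. The summed TPM of those 9 was 54.4 to 123 in NP lungs, 67.1 to 86.0 in vehicle lungs and 35.1 to 88.4 at day 14. The part of natural killer cells in the cytotoxic values was not tested.

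Of 12 naive and trafficking genes, 2 rose and 1 fell in NP lungs against day 14, while in vehicle lungs edgeR called 0, DESeq2 called 1 and 4 had an unadjusted p under 0.05. Over all genes, 6.16% were called higher and 8.56% lower in NP lungs, and 3.79% higher and 6.51% lower in vehicle lungs. In the interleukin 7 and interleukin 2 list, 1 of 10 tested genes fell in each day 21 group, Crlf2, the receptor that pairs with IL-7 receptor alpha to bind TSLP, by 0.29 in NP and 0.35 in vehicle lungs. Il7 itself had 0.00 (SE 0.11, adjusted p = 0.985) in NP and −0.04 (SE 0.11, adjusted p = 0.865) in vehicle lungs against day 14. Helper cytokine genes were near the limit of detection: Il4, Il5, Il13, Ifng, Il17a, Il17f, Il21 and Il22 had at most 12 counts in any library and were not tested, and Il22 had 0 in all 12. Of 6 helper genes tested, edgeR called 0 in any comparison, while DESeq2 called 1 for NP and 1 for vehicle against day 14, with 3 and 2 at an unadjusted p under 0.05. Of 5 gamma delta T cell genes, edgeR and DESeq2 called 0 in any comparison, with 1 at an unadjusted p under 0.05, for vehicle against day 14.

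Single lungs set much of the spread of the T cell genes, in step with other lymphocyte markers. NP replicate 3 was the lowest of its group for 9 of the 10 genes and NP replicate 2 the highest for 8, and day 14 replicate 2 was the highest of its group for 7. The mean log2 CPM of 10 B cell markers, centred over the 12 libraries, was 0.779 in NP replicate 2 and −0.529 in NP replicate 3. Summed B cell marker TPM ran from 126 to 321 in NP lungs, from 152 to 270 in vehicle lungs and from 108 to 239 at day 14, and 0 of the 10 markers passed with edgeR in any comparison. For NP against day 14, 2 B cell markers had an unadjusted p under 0.05 and DESeq2 called 2. Thymocyte markers were near 0, with summed TPM of 0.42 to 0.87 in NP lungs, 0.33 to 0.54 in vehicle lungs and 0.27 to 0.72 at day 14, and Ptcra at 0 in 10 of 12 libraries. Of 8 lymph node and tertiary lymphoid stroma markers, the vessel genes Glycam1 and Madcam1 had at most 2 and 3 counts in any library and were not tested. The others were tested, the lowest being Lta, at 0.4 to 1.22 TPM and 9 to 25 counts. The summed TPM of the list was 283.2 to 483.4 in NP lungs, 281.9 to 394.8 in vehicle lungs and 318.5 to 450.7 at day 14. Most of it came from the chemokine Ccl21a, at 224 to 439 TPM. Of the 6 tested, 1 fell in each day 21 group, Cxcl13, a chemokine that draws B cells into follicles, with −0.68 (SE 0.13, adjusted p = 0.00469) for NP and −0.65 (SE 0.13, adjusted p = 0.00831) for vehicle against day 14, and both calls held with each library left out. Dividing cell markers were called lower in both day 21 groups, 7 of 7 in each, beside 8.56% of all genes in NP lungs and 6.51% in vehicle lungs. The vehicle call of Birc5 was lost in 7 of 12 fits that left out 1 library (edgeR adjusted p up to 0.115). All other calls of dividing cell markers held in such fits. The summed TPM of these markers was 105 to 154 in NP lungs, 123 to 165 in vehicle lungs and 235 to 263 at day 14. The summed TPM of macrophage and monocyte markers was 607 to 982 in NP lungs, 586 to 729 in vehicle lungs and 940 to 1069 at day 14. By this sum every vehicle library was below every day 14 library, while NP replicate 3 was within the day 14 range. Of 10 such genes, 3 fell (C1qa, C1qb and Cd14) and 1 rose (Ly6c2) in NP lungs, and 4 fell (Cd68, C1qa, C1qb and Cd14) and 0 rose in vehicle lungs. The median log2 fold changes were −0.24 for NP and −0.47 for vehicle against day 14. Over all genes, 8.56% were called lower and 6.16% higher in NP lungs, and 6.51% lower and 3.79% higher in vehicle lungs. The NP calls of C1qa, C1qb and Cd14 were lost in 5, 3 and 6 of 12 fits that left out 1 library. In vehicle lungs those of C1qa and Cd14 were lost in 2 and 3 such fits, and the other calls of this list held. Myeloid cells also transcribe Cd4, Pdcd1lg2 and Havcr2. The part of dividing and myeloid cells in the changes given above was not tested.

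**Figure D4:**
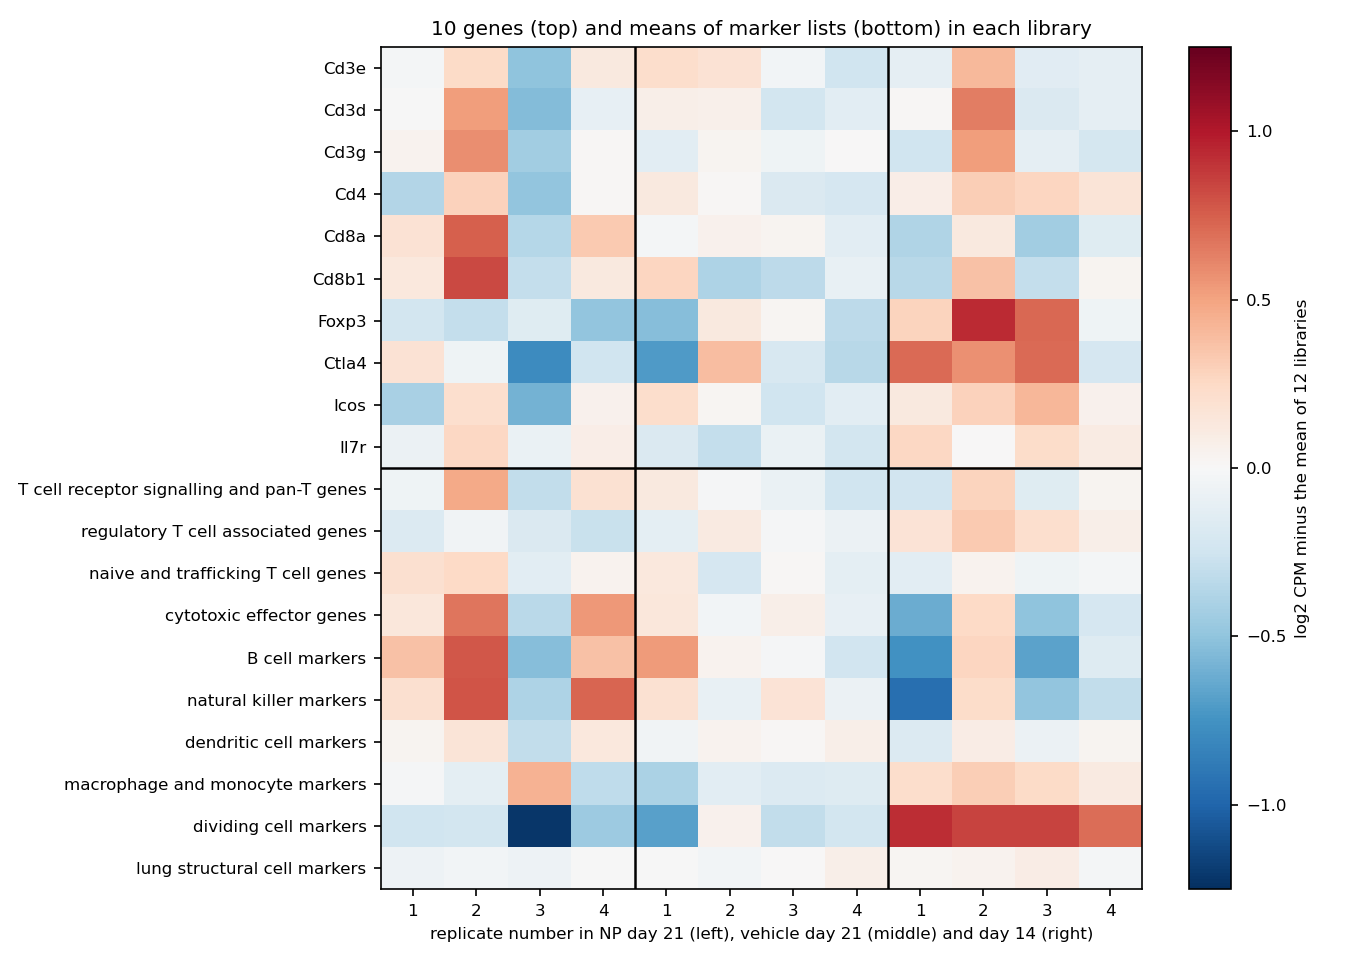
Log2 CPM minus the mean of 12 libraries (colour scale) of the 10 genes, and its mean over the genes of 10 other lists (rows). Columns are the libraries of NP day 21, vehicle day 21 and day 14. The list rows use log2 CPM with a prior count of 2, which damps low counts, and the gene rows use none. NP replicate 3 is low and NP replicate 2 high in the CD3, Cd4, Cd8a, Cd8b1 and Icos rows and in the B cell, natural killer and cytotoxic rows, Foxp3 and Ctla4 are below their means in NP replicate 2, and the dividing cell row is high in all 4 day 14 libraries.

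Genes outside the set whose levels were most like the mean log2 CPM of Cd3e, Cd3d and Cd3g over the 12 libraries were ranked by Pearson's r among 15520 genes, as a description of libraries that share depth and composition. The first 8 were Lat (r = 0.932), Rnd3 (0.931), Cd6 (0.921), Tspan32 (0.915), Tcf3 (0.895), Pglyrp2 (0.894), Map4k1 (0.892) and Nsg2 (0.885). Lat encodes an adaptor that is phosphorylated once the T cell receptor is activated, and Cd6 a T cell surface receptor. Within the 10 genes, r with the CD3 mean was 0.739 for Cd8b1, 0.730 for Cd8a, 0.654 for Cd4, 0.576 for Icos, 0.369 for Ctla4, 0.233 for Foxp3 and 0.146 for Il7r. The 2 of the 10 genes called above had the lowest r. Because r over the 12 libraries includes differences between groups, this is not separate support for those calls.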

How the data were processed

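Whole-lung polyA RNA of 12 mice was sequenced with paired-end reads, per the labels' protocols. Among the tools listed in the submitters' processing notes are STAR 2.7.8a, RSEM 1.3.3 and cutadapt 4.8, with no step stated for each. The authors deposited an expected count per gene and library, all whole numbers, and TPM values scaled per library, per the file headers. The deposited FPKM table was not used. The strand setting and annotation release are not given in the sources used here. Every column was matched to a mouse, leaving 0 columns without one.

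Expected counts were filtered with filterByExpr at a minimum count of 10 and a minimum total of 15, leaving 17909 genes with all 10 members among them. They were TMM-scaled and fitted with edgeR 4.0.16 (glmQLFit, robust, statmod 1.5.0) in R 4.3.3, with all 12 libraries and 3 groups in 1 fit. Contrasts were two-sided, with Benjamini-Hochberg adjustment over all genes. CPM are counts over TMM-scaled library sizes. The common biological coefficient of variation was 0.119. Alternatives used DESeq2 1.42.0, limma 3.58.1 on log2 TPM, other filters and scaling, and each library left out. The fit was tested on simulated data. Libraries of 1 group differed beyond sampling noise (chi-square per degree of freedom 7.52 to 30.0 over 18 pairs). GENCODE M21 held 55141 of the identifiers.

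The 10 genes and the other lists were chosen with earlier results of these data known. Of each other list, up to 4 genes past the threshold with the smallest p were eligible to be named, others being counted. Il7 (the ligand of a member), Il1rl1, Ccl21a, Trac, Birc5 and the genes overlapping Foxp3 were named with their values seen. P-values set a difference between groups against the spread between mice within groups, estimated in the main fit from all 12 libraries. Intervals of fold changes come from the edgeR fit, and the limit of 3 counts covers counting error only.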

Additional observations from a re-analysis of the deposited data

Results flagged for a closer look

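Day 14 replicate 2 stood apart from the other lungs of its group for 2 of the 10 genes. Cd3e was at 6.15 CPM in that library, against 4.21 to 4.31 CPM in the other 3, a gap of 0.948 of the group's range. Cd3g was at 9.39 CPM, against 5.51 to 6.04 CPM in the other 3, a gap of 0.864. With 30 groups of 4 values looked at, chance flags about 1 in 20 groups. Without that library, Cd3e and Cd3g remained uncalled in all 3 comparisons.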

How the results depend on the processing

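Of 570 values of the 10 genes under other settings, 521 kept their direction and their side of the threshold, 11 lost a call, 6 gained one and 32 changed sign. Lost and gained calls concerned Foxp3, Il7r, Ctla4, Cd4 and Cd8a, and sign changes small uncalled values. For NP against day 14, 1 of the 10 genes was called, and limma on log2(TPM + 0.1) and on log2(TPM + 1) each called 0, with 0 to 2 when single libraries were left out. For vehicle against day 14, DESeq2 and the fit with the replicate number as a block each called 2 in place of 1 (Foxp3 and Il7r), with 0 to 2 when single libraries were left out. For NP against vehicle the count was 0 under every setting and with every library left out. Over all genes, the NP against day 14 count of 2636 became 1672 with only those groups in the fit and 1577 and 1607 with limma at a pseudocount of 0.1 and 1, with 1363 to 2934 when single libraries were left out. The vehicle against day 14 count of 1845 became 995 and 1051 with limma, with 719 to 2162 when single libraries were left out. DESeq2 called 19 genes for NP against vehicle. The regulatory T cell list gave 3 in place of 5 for NP against day 14 with only those groups in the fit, and 1 in place of 3 for vehicle against day 14 with limma. These settings for other lists were chosen after the data were seen. The causes were not tested.

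Signs changed as follows with limma at pseudocounts of 0.1 and 1: Cd3g 0.0089 and 0.0065 for vehicle against day 14, Cd3e 0.056 and 0.047 for NP against day 14, Cd3e 0.052 and 0.043 and Foxp3 0.050 and 0.030 for NP against vehicle. When single libraries were left out, log2 fold changes for NP against day 14 ran from −0.14 to 0.12 for Cd3e, −0.33 to 0.11 for Cd3d and −0.12 to 0.30 for Cd3g. For vehicle against day 14 they ran from −0.039 to 0.17 for Cd3e, −0.27 to 0.046 for Cd3d, −0.13 to 0.17 for Cd3g and −0.21 to 0.093 for Cd8b1. For NP against vehicle they ran from −0.15 to 0.076 for Cd3e, −0.15 to 0.21 for Cd3d, −0.074 to 0.27 for Cd3g, −0.21 to 0.059 for Cd4 and −0.18 to 0.21 for Ctla4.

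Libraries with the same replicate number did not deviate together: r of their deviations from group means was −0.07 to 0.15, over 0.1 in 2 of 12 pairs, and 4 of 12 libraries correlated best with their own number, so the numbers do not pair the mice. With the replicate number as a block, Foxp3 had −0.65 with adjusted p = 0.0351 in edgeR for vehicle against day 14, and 2419 genes were called for NP against day 14, 1673 for vehicle against day 14 and 0 for NP against vehicle.

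Depth limits the lowest genes: Foxp3 and Ctla4 had 23 to 116 counts per library, and their fold changes carried standard errors of 0.21 to 0.28 on the log2 scale. With 4 mice a group, 1 mouse could make or end a call, and no uninjured lung was compared.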
